A study of Atriplex prostrata and Atriplex rosea and Atriplex prostrata x Atriplex rosea with 87 samples.

Results

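The genes described here encode the NAD-malic enzyme that decarboxylates malate in leaf mitochondria, and carriers and malate dehydrogenases that handle malate there. They were chosen by Arabidopsis locus identifier: the NAD-malic enzymes NAD-ME1 (AT2G13560) and NAD-ME2 (AT4G00570), the dicarboxylate carriers DIC1 (AT2G22500), DIC2 (AT4G24570) and DIC3 (AT5G09470), and the mitochondrial malate dehydrogenases mMDH1 (AT1G53240) and mMDH2 (AT3G15020). Of these 7 loci, 6 were found among the 21971 loci used and all 6 passed the filter on low counts that left 14779 loci for testing; mMDH2 was not analysed here. No coordinates or sequences of these loci were read, because the table names loci by identifier only.

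Among C4 plants, those of the NAD-malic enzyme type form carbon dioxide in bundle sheath mitochondria. Carbon dioxide first captured in the mesophyll travels to the bundle sheath as aspartate. There a mitochondrial aspartate aminotransferase and malate dehydrogenase turn it into malate, and NAD-malic enzyme splits malate into pyruvate and carbon dioxide beside Rubisco. Dicarboxylate carriers move malate and related acids across the inner mitochondrial membrane, and in C3 leaves the same proteins serve respiration.

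RNA sequencing was carried out on leaves of Atriplex rosea, a C4 species, and Atriplex prostrata, a C3 species. Chambers were kept at 27 °C during the 17 h day and 22 °C otherwise, with light of 500 µmol photons, and leaves were taken 2 h into the day. Each species contributed 24 libraries in 8 groups of 3, described in the design as biological triplicates: whole leaves of 1 mm (leaf plastochron index -1.3), of 5 mm (-0.7) and of 7.5 mm (-0.35, leaf 9 and leaf 10 apart), and the bottom and top parts of leaves at index 0.3 (11 mm in rosea, 15 mm in prostrata) and 0.8 (13 mm in rosea, 18 mm in prostrata). The leaf plastochron index is a developmental age computed from leaf lengths. Their F1 hybrid and the oldest leaves were not analysed here.

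The deposited counts summed to between 7647689 and 15360702 reads per library in rosea (median 10838174) and between 8028511 and 12387428 in prostrata (median 9495920). Reads of both species were counted at loci of Arabidopsis, a plant of another family, and the part of sequence match in the differences between the species was not tested. The leaf markers RBCS1A, RCA and CAB3 had counts in every library, and their summed level ran from 7834 to 62562 CPM in rosea and from 8311 to 129031 CPM in prostrata. CPM is a count divided by the library total after scaling by trimmed mean of M-values (TMM), times a fixed factor. Whole leaves and leaf parts mix mesophyll, bundle sheath and other cells, so more cells of a type and more RNA per cell cannot be told apart. Lanes held 12 libraries and reads were 100 or 150 bp long, without a record of which library was which, so lane and species cannot be told apart.

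The NAD-malic enzymes stood above prostrata already in the youngest rosea leaves and climbed with age, while in prostrata they varied little. NAD-ME1, in Arabidopsis the alpha subunit of the enzyme, had 360.2, 397 and 469 CPM in 1 mm leaves of rosea, 695, 678 and 890.3 CPM at 5 mm, and 829, 1458 and 824 CPM in leaf 9 at 7.5 mm. It stood at 523, 1294 and 556 CPM in leaf 10 of rosea, at 1643, 2704 and 1747 CPM in the bottom part at index 0.3 and at 3077, 2506 and 2326 CPM in the top part. The mean of each leaf part was thus above that of every whole-leaf group. At index 0.8 the rosea libraries had 2585, 1432 and 3596 CPM in the bottom part and 2746, 4680.4 and 3084 CPM in the top part. In prostrata the lowest of the 24 libraries had 85.1 CPM, the median was 105.8 CPM and the highest had 119.6 CPM, so the extremes lay 1.41-fold apart, against 13.0-fold in rosea. The 2 species did not overlap at any of the 8 stages. The share of all loci without overlap was not computed, so overlap is given here and below as a description only.

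NAD-ME2, in Arabidopsis the beta subunit, followed the same course in rosea. It had 242, 295 and 362 CPM at 1 mm, 660.0, 654 and 776 CPM at 5 mm, and 768, 1174 and 710.2 CPM in leaf 9, with 525, 1098 and 492 CPM in leaf 10. The rosea libraries of index 0.3 ran from 1295 to 1991 CPM in the bottom part and from 1827 to 2323 CPM in the top part, and those of index 0.8 from 1165 to 2505 CPM and from 2012 to 2980.4 CPM. Prostrata libraries lay between 98.1 and 161 CPM with a median of 130.2 CPM, highest in 1 mm leaves (155 ± 5.32 CPM, SD, n = 3) and lowest in the bottom part at index 0.8 (111 ± 11.6 CPM). Again no stage had overlapping libraries.

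**Figure D1:**
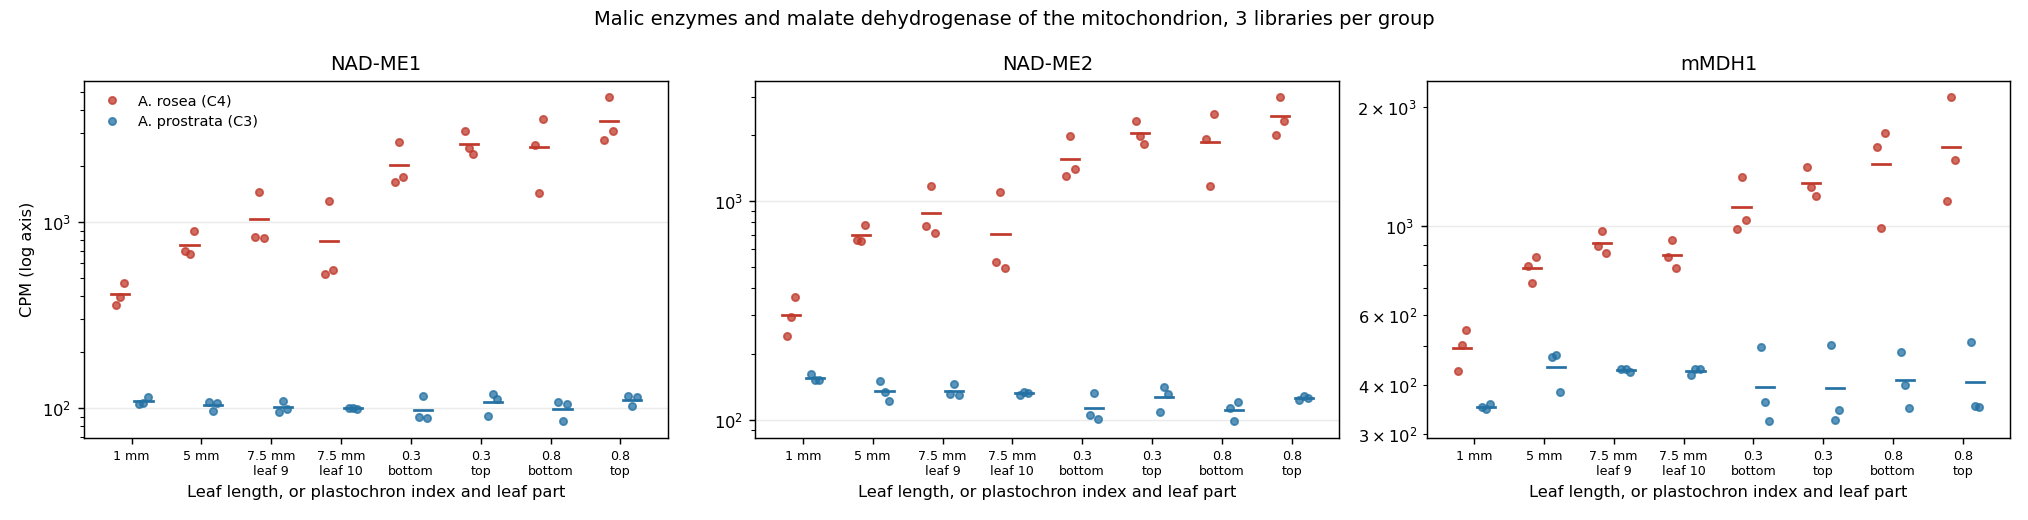
CPM on a log axis of NAD-ME1, NAD-ME2 and mMDH1 in each library by leaf length or plastochron index and leaf part, with A. rosea (red) left of A. prostrata (blue); points are libraries and bars the means of 3. Rosea libraries stand above prostrata libraries at each stage, and only the rosea values climb with age, from 409 to 3504 CPM in the group means of NAD-ME1.

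The dicarboxylate carriers did not start out higher in rosea, and in the C3 species they followed a course of their own. DIC1, which the table also names uncoupling protein 5, had 28.7, 30.8 and 44.5 CPM in 1 mm leaves of rosea, against 32.7, 33.0 and 29.7 CPM in prostrata, and these libraries overlapped. At 5 mm it had 66.3, 72.2 and 95.2 CPM in rosea and 35.5, 27.4 and 27.8 CPM in prostrata. In 7.5 mm leaves rosea had 101, 192 and 89.8 CPM in leaf 9 and 54.5, 166 and 58.3 CPM in leaf 10, while prostrata reached its own highest values, 56.6, 45.4 and 51.3 CPM in leaf 9 and 48.5, 49.4 and 52.7 CPM in leaf 10. From there the species parted.

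At index 0.3 DIC1 stood at 259.6, 445 and 240.2 CPM in the bottom part and 628, 444 and 343 CPM in the top part of rosea leaves. Prostrata was at its lowest there, with 13.4, 17.2 and 19.3 CPM in the bottom part and 14.9, 11.9 and 10.4 CPM in the top part. At index 0.8 rosea had 515, 205 and 668 CPM in the bottom part and 559, 914 and 537 CPM in the top part, against 15.3, 29.5 and 25.3 CPM and 20.3, 26.1 and 23.6 CPM in prostrata. Apart from 1 mm, no stage had overlapping DIC1 libraries.

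DIC2 and DIC3 had the same outline at other counts. DIC2 averaged 39.1 ± 10.1 CPM at 1 mm and 740.5 ± 229.7 CPM in the top part at index 0.8 of rosea, against 52.7 ± 1.13 and 35.3 ± 7.42 CPM in prostrata (SD, n = 3 each). DIC3 averaged 6.70 ± 2.17 CPM and 108 ± 33.3 CPM at these stages in rosea, against 12.5 ± 0.345 and 8.80 ± 1.80 CPM in prostrata. For both loci the 3 rosea libraries of 1 mm lay below all 3 of prostrata. In prostrata both had their highest means at 7.5 mm, where DIC2 had 79.7 ± 0.948 CPM in leaf 10, and were lowest in the top part at index 0.3, where DIC2 had 20.2 ± 1.22 CPM and DIC3 5.07 ± 1.24 CPM.

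**Figure D2:**
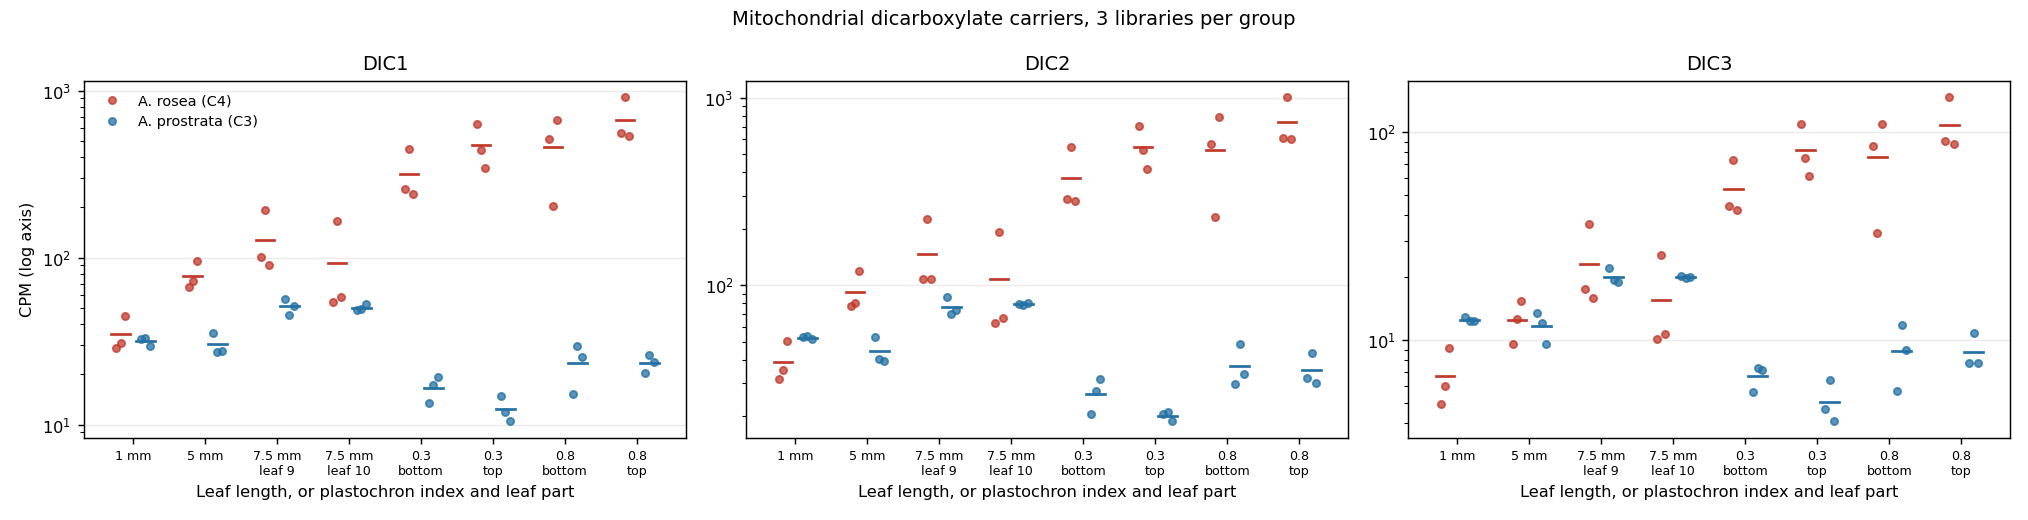
CPM on a log axis of DIC1, DIC2 and DIC3 in each library by stage, with A. rosea (red) left of A. prostrata (blue); points are libraries and bars the means of 3. Rosea climbs with age at each locus (group means of DIC1 from 34.7 to 670.0 CPM), while prostrata has its highest values at 7.5 mm and is lowest in the top part at index 0.3.

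Because the 3 carriers belong to 1 gene family, it was checked whether their counts move as separate measures. They hardly did. Within a library the count of DIC2 was 1.15 ± 0.0443 times that of DIC1 in rosea and 1.58 ± 0.152 times in prostrata, and DIC3 had 0.172 ± 0.0134 of the count of DIC1 in rosea and 0.395 ± 0.0448 in prostrata (SD, n = 24 each). These shares stayed in place while DIC1 itself moved 31.8-fold among the rosea libraries.

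The scatter of the split between DIC1 and DIC2 among replicates was compared with counting noise, for which the chi-square per degree of freedom is 1. It was 1.89 in rosea and 1.27 in prostrata for DIC1 and DIC2, 0.534 and 0.796 for DIC1 and DIC3, and 1.13 and 0.615 for DIC2 and DIC3 (16 degrees of freedom per species). For pairs from different families it was far from 1, at 32.6 in rosea and 8.69 in prostrata for NAD-ME1 and DIC1, and at 135 and 11.9 for DIC1 and mMDH1. NAD-ME1 and NAD-ME2, subunits of 1 enzyme, stood at 35.6 and 2.15. This measure grows with the counts, so pairs of unlike depth are not compared on equal terms. Per group of 3 libraries, counts ran from 119 for DIC3 (prostrata, top part at index 0.3) to 101404 for NAD-ME1 (rosea, top part at index 0.8). A value near 1 at low counts does not by itself show a fixed split. No file used here shows which reads were counted at which DIC locus, so the division of 1 gene's reads among the loci and genes that vary together cannot be told apart. The 3 loci are accordingly not taken as 3 independent measurements, and their sum is given beside them.

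The summed DIC count averaged 80.5 ± 20.8 CPM in rosea and 97.0 ± 3.04 CPM in prostrata at 1 mm (SD, n = 3 each). In the top part at index 0.8 the sum was 1519 ± 474 CPM in rosea and 67.4 ± 11.5 CPM in prostrata. Tested as 1 locus, the sum differed by -0.27 on the log2 scale at 1 mm (adjusted p = 0.566, not called), by 1.08 at 5 mm (adjusted p = 0.00953), by 1.01 in leaf 9 (adjusted p = 0.014) and by 0.53 in leaf 10 (adjusted p = 0.205, not called), rosea over prostrata, in edgeR's quasi-likelihood test. At index 0.3 it was higher in rosea by 3.89 in the bottom part and 4.87 in the top part, at index 0.8 by 3.94 and 4.49, and over the 8 stages by 2.44 (adjusted p = 6.48e-20).

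With age, from 1 mm to index 0.8, the sum rose by 3.98 in rosea (adjusted p = 9.11e-12 in edgeR) and was at -0.50 in prostrata (adjusted p = 0.136, not called), a difference of 4.49 (adjusted p = 1.49e-09). From 7.5 mm to index 0.3 it rose by 1.83 in rosea and fell in prostrata, at -1.78. Tips minus bases gave 0.54 in rosea and -0.22 in prostrata, neither called.

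Ratios within a library do not depend on scaling, and all 3 ratios computed differed between the species. The count ratio NAD-ME1 to NAD-ME2 was 1.26 ± 0.142 in rosea and 0.812 ± 0.0809 in prostrata (SD, n = 24 each), a difference of 0.63 on the log2 scale, and the ranges did not overlap (0.996 to 1.57 in rosea, 0.655 to 0.949 in prostrata). DIC2 to DIC1 differed by -0.45 and DIC3 to DIC1 by -1.20. A permutation test with labels exchanged within stages gave p = 1e-05 for each, the smallest value 100000 resamples can give, and 1e-05 after Benjamini-Hochberg adjustment over the 3 ratios. Counts are not divided by gene length, so a ratio above 1 does not say which transcript was more abundant. The NAD-ME1 to NAD-ME2 ratio of rosea was 1.38 ± 0.0990 at 1 mm, 1.08 ± 0.0591 at 5 mm and 1.42 ± 0.131 in the top part at index 0.8 (SD, n = 3 each).

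**Figure D3:**
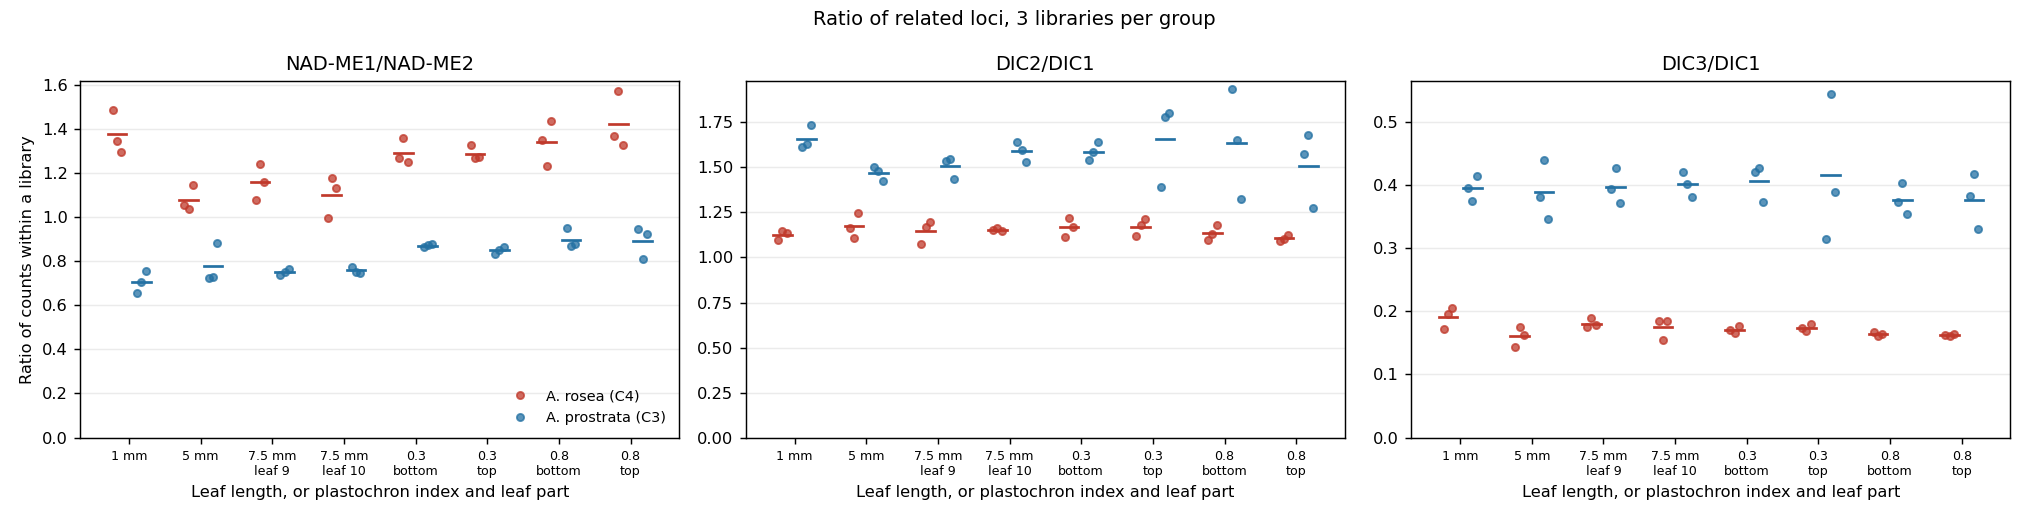
Ratio of counts within a library for NAD-ME1 to NAD-ME2, DIC2 to DIC1 and DIC3 to DIC1 by stage, with A. rosea (red) left of A. prostrata (blue); points are libraries and bars the means of 3, on linear axes from 0. Each ratio keeps to a band of its own in each species, such as 0.144 to 0.205 in rosea and 0.314 to 0.544 in prostrata for DIC3 to DIC1.

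mMDH1, which interconverts malate and oxaloacetate in the mitochondrial matrix, had the smallest difference of the 6 loci over the stages together. Its rosea libraries had 432, 502 and 549 CPM at 1 mm, 796, 720.0 and 837 CPM at 5 mm, and 1159, 2112 and 1469.9 CPM in the top part at index 0.8. Prostrata libraries lay between 323 and 513 CPM with a median of 410.4 CPM. The species did not overlap at any stage. In prostrata replicate 1 was the highest of the 3 in each leaf part of indices 0.3 and 0.8, at 497, 502, 482 and 513 CPM, against 323 to 399 CPM in the other libraries of these groups.

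Libraries of the same rosea group differed from each other in all 6 loci together. Library 2 was the highest of the 3 for all 6 members in leaf 9, in leaf 10 and in the top part at index 0.8, and the lowest for all 6 in the bottom part at index 0.8. RBCS1A, a Rubisco small subunit, was set beside them in 4 groups, picked because the members varied together there. Its highest library was that of all 6 members in each of these 4 groups. The lowest library was not always shared: in leaf 10 it was library 3 for RBCS1A and library 1 for 4 of 6 members. RBCS1A had 5252, 7762 and 4752 CPM in leaf 9 and 4094, 7097 and 3639 CPM in leaf 10. At index 0.8 it had 13953.5, 9210.2 and 16926 CPM in the bottom part and 11184, 18036 and 14461 CPM in the top part. RCA and CAB3 were likewise highest or lowest in library 2 in leaf 9, in leaf 10 and in both parts at index 0.8. Over all 24 libraries of a species, deviations of NAD-ME1 and RBCS1A from their group means correlated at 0.96 in rosea and -0.70 in prostrata. The part of these leaf markers in the differences between libraries was not tested. Where a call rests on 1 of these libraries, the value without it is given beside the result.

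To ask at which age the C4 species parts from the C3 species, the species were compared at each stage, and a locus was called when its adjusted p was under 0.05 and its change at least 2-fold (edgeR's quasi-likelihood test, Benjamini-Hochberg adjustment over all 14779 loci). Over the 8 stages together all 6 members were higher in rosea, a call that 9.61% of all loci tested received. The log2 fold change was 1.60 for DIC3 (SE 0.13, adjusted p = 2.74e-14) and 1.29 for mMDH1 (SE 0.07, adjusted p = 1.14e-19), and lay between 2.35 and 3.72 for the malic enzymes and the other carriers. The median of all loci was -0.02.

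In 1 mm leaves 1 of the 6 members was called higher in rosea, where 8.49% of all loci were, and that member was NAD-ME1. DIC2 was at -0.43 (SE 0.35, adjusted p = 0.351) and DIC3 at -0.89 (SE 0.37, adjusted p = 0.0498), neither called, and mMDH1 at 0.49 (SE 0.19, adjusted p = 0.0383). Without rosea replicate 1 NAD-ME2 was also called, at 1.08, and without rosea replicate 3 DIC3 was called lower (7.9% of all loci were), at -1.18, while DIC1 turned to -0.09.

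At 5 mm 4 members were called higher (10.4% of all loci): NAD-ME1 at 2.86 (SE 0.28), NAD-ME2 at 2.37 (SE 0.24), DIC1 at 1.37 (SE 0.35) and DIC2 at 1.05 (SE 0.35, adjusted p = 0.0129). DIC3 was at 0.11 and mMDH1 at 0.83 (SE 0.19, adjusted p = 0.000535). The call of DIC2 was lost when library totals replaced TMM (0.89) and without prostrata replicate 2 (0.99), prostrata replicate 3 (0.98) or rosea replicate 3 (0.88). DIC3 turned to -0.053 with library totals, to -0.015 without prostrata replicate 3 and to -0.018 without rosea replicate 3.

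At 7.5 mm the count was 4 in leaf 9 (11% of all loci) and 2 in leaf 10 (9.57%). NAD-ME1 stood at 3.35 (SE 0.29) and 2.98 (SE 0.29) in leaf 9 and leaf 10, and NAD-ME2 at 2.71 (SE 0.25) and 2.42 (SE 0.24). DIC1 was called in leaf 9 at 1.32 (SE 0.35, adjusted p = 0.00164), but not without rosea library 2 (0.93), and DIC2 there was at 0.94 (adjusted p = 0.0237). Without prostrata library 1, rosea library 1 or rosea library 3 DIC2 was called, at 1.03, 1.15 and 1.12, and DIC3 turned to -0.24 without rosea library 2.

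In leaf 10 DIC1 was at 0.89, DIC2 at 0.43 and DIC3 at -0.38 on the log2 scale, none called. Without rosea replicate 1 or 3 of leaf 10 DIC1 was called, at 1.19 and 1.17, as was mMDH1, at 1.01 and 1.06, and DIC2 turned to -0.30 without rosea replicate 2. mMDH1 was called in leaf 9 at 1.06 (SE 0.19), but not with library totals (0.86), and stood at 0.97 (SE 0.19, adjusted p = 7.35e-05) in leaf 10. With the stricter filter, with the libraries of the comparison only or without organelle loci it was called there, at 1.00 each time. Between leaf 9 and leaf 10 edgeR called 0 members and 0 of all loci within either species, with 0 members at an unadjusted p under 0.05 and 0 called by DESeq2.

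From index 0.3 on all 6 members were called higher in rosea in both leaf parts, where 10.3% of all loci were called in the bottom part and 10.3% in the top part. DIC1 was higher by 4.25 (SE 0.39) in the bottom part and 5.25 (SE 0.42) in the top part, and DIC3 by 2.98 (SE 0.37) and 4.01 (SE 0.40). NAD-ME1 was higher by 4.37 (SE 0.30) and 4.61 (SE 0.31), and mMDH1 by 1.50 (SE 0.20) and 1.72 (SE 0.20). At index 0.8 all 6 were again called, with backgrounds of 11.9% in the bottom and 11.7% in the top part. The bottom part had NAD-ME1 at 4.67 (SE 0.31), NAD-ME2 at 4.07 (SE 0.26), DIC1 at 4.31 (SE 0.39), DIC2 at 3.83 (SE 0.39), DIC3 at 3.11 (SE 0.37) and mMDH1 at 1.80 (SE 0.20). These calls held under every alternative run, including without each library in turn.

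**Figure D4:**
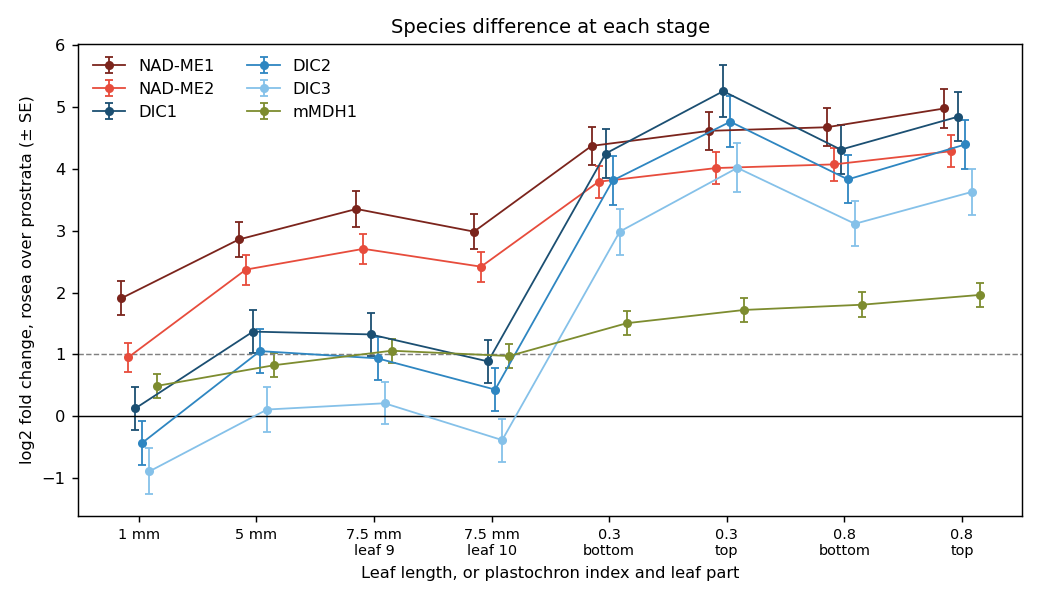
Log2 fold change, rosea over prostrata, of the 6 loci at each stage; points are edgeR estimates, bars ± 1 SE, the solid line marks no difference and the dashed line the 2-fold threshold. The malic enzymes stand above the threshold or just under it from 1 mm on (NAD-ME1 1.91, NAD-ME2 0.95), while the carriers pass from between -0.89 and 0.13 at 1 mm to between 2.98 and 5.25 at index 0.3.

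In the authors' deposited table, which gives its own fold changes for 6 of these stages, the 36 values of the members all had the same sign as here once turned to rosea over prostrata. The largest absolute difference was 0.21 on the log2 scale. The authors' q-value was under 0.05 for 31 of the values, and the adjusted p of edgeR here for 33, with 31 under 0.05 in both. At 1 mm the authors' q-values of DIC3 (0.102) and mMDH1 (0.0871) were not under 0.05, unlike the adjusted p here. Both sets of values come from the same counts.

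To ask whether the genes change as leaves mature, index 0.8 (mean of both parts) was compared with 1 mm within each species. In rosea all 6 members rose (15% of all loci rose). DIC1 rose by 4.00 (SE 0.36), DIC2 by 4.00 (SE 0.37) and DIC3 by 3.75 (SE 0.35) on the log2 scale, NAD-ME1 by 2.87 (SE 0.27), NAD-ME2 by 2.83 (SE 0.23) and mMDH1 by 1.60 (SE 0.18). In prostrata 0 of 6 were called by edgeR or DESeq2, and 0 had an unadjusted p under 0.05 (15.2% of all loci rose and 8.28% fell). NAD-ME1 was there at -0.05 (SE 0.23), NAD-ME2 at -0.39 (SE 0.20), the carriers between -0.45 and -0.54 and mMDH1 at 0.21 (SE 0.17). Each locus had 1 spread estimate shared by both species, though the groups differed in spread. For DIC1 at 1 mm the SD was 24.8% of the mean in rosea and 5.76% in prostrata. The absence of a call in prostrata thus does not show that levels there stayed the same.

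The age changes themselves differed between the species in all 6 members, a call that 4.51% of all loci received. The difference, rosea minus prostrata, was 4.45 (SE 0.45, adjusted p = 1.98e-09) for DIC1, 4.54 (SE 0.46) for DIC2, 4.26 (SE 0.45) for DIC3, 2.92 (SE 0.33, adjusted p = 2.92e-08) for NAD-ME1, 3.22 (SE 0.29) for NAD-ME2 and 1.39 (SE 0.24, adjusted p = 2.71e-05) for mMDH1. Scaled by library totals instead, the median of all loci moved to -0.75 in the age change of rosea and -0.58 in that of prostrata. On that scale DIC2 (-1.10) and DIC3 (-1.06) were called lower with age in prostrata, mMDH1 in prostrata turned to -0.35, and the rise of mMDH1 in rosea was under the 2-fold threshold (0.90), while the 6 differences were still called.

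Neighbouring ages were then compared within each species, and no test set these steps against each other. In rosea 3 members rose from 1 mm to 5 mm (3.89% of all loci): NAD-ME2 by 1.22 (SE 0.23), DIC1 by 1.17 (SE 0.35) and DIC2 by 1.23 (SE 0.36). NAD-ME1 was at 0.88 (SE 0.27, adjusted p = 0.0125) and not called. With library totals 0 were called (0.96, 0.91 and 0.98), and without rosea 1 mm replicate 1 or rosea 5 mm replicate 3 only NAD-ME2 was. Without rosea 1 mm replicate 2 DIC1 was not called (1.09), and without replicate 3 DIC3 was also called (1.20). From 5 mm to 7.5 mm in rosea 0 members were called by edgeR or DESeq2, and 0 had an unadjusted p under 0.05. In that step of rosea 0% of all loci were called. The log2 fold changes of all 6 in rosea were positive, from 0.16 for mMDH1 to 0.59 for DIC3.

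From 7.5 mm to index 0.3 5 members rose in rosea (5.23% of all loci): NAD-ME1 by 1.35 (SE 0.19), NAD-ME2 by 1.18 (SE 0.16), DIC1 by 1.82 (SE 0.25), DIC2 by 1.84 (SE 0.25) and DIC3 by 1.80 (SE 0.24). mMDH1 was at 0.45 (SE 0.14, adjusted p = 0.00709) and not called, and NAD-ME2 fell under the threshold with library totals (0.92). At the same step in prostrata the 3 carriers fell (5.28% of all loci), with log2 fold changes of -1.82 for DIC1 (SE 0.26, adjusted p = 2.81e-07), -1.76 for DIC2 (SE 0.26) and -1.79 for DIC3 (SE 0.27). Given how their counts move together, these are not taken as 3 independent measurements. NAD-ME1, NAD-ME2 and mMDH1 were not called at that step. The higher carrier counts of prostrata at 7.5 mm than at 5 mm did not pass the test (0.74 to 0.82 on the log2 scale, adjusted p = 0.331 for DIC1 and 0.262 for DIC2, 0.582% of all loci called higher). In that step of prostrata 3 of 6 members had an unadjusted p under 0.05.

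In the last step, from index 0.3 to 0.8, 0 members were called in either species (0.318% of all loci rose in rosea and 0.0203% in prostrata), with 3 of 6 at an unadjusted p under 0.05 in each species and 0 called by DESeq2. In rosea these values ran from 0.25 for NAD-ME2 to 0.53 for DIC1. In prostrata they ran from -0.02 for NAD-ME2 to 0.70 for DIC1, with DIC2 at 0.65 and DIC3 at 0.59. The first step in prostrata, from 1 mm to 5 mm, called 0 members, with 0 at an unadjusted p under 0.05 and 0 by DESeq2 (0.663% of all loci rose and 1.21% fell).

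Tips were compared with bases over indices 0.3 and 0.8, and 0 members were called in either species or in the difference between them, by edgeR or DESeq2. In rosea the top part was higher by 0.42 (SE 0.19, adjusted p = 0.195) for NAD-ME1, 0.39 (SE 0.16) for NAD-ME2 and 0.56 (SE 0.24) for DIC1 on the log2 scale, none called. An unadjusted p under 0.05 was reached by 5 of 6 in rosea, 0 in prostrata and 3 in the difference. The background was 0.149% of all loci higher in tips of rosea, 0.433% in prostrata and 0.0677% in the difference. Rosea tips and bases overlapped at both indices for NAD-ME1, as the library values above show.

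Other genes that handle malate, and other genes of the mitochondrion, were set beside these 6 to show how far the difference extends, by lists chosen with results of these data already known. Over the 8 stages, where 9.61% of all loci were called higher, both mitochondrial aminotransferases tested were higher in rosea: the aspartate aminotransferase ASP1 (AT2G30970), which makes the oxaloacetate that malate dehydrogenase reduces, by 3.98 (SE 0.12) and the alanine aminotransferase AlaAT1 (AT1G17290) by 4.48 (SE 0.14). The ASP1 level was 1506 ± 1086 CPM over the 24 rosea libraries and 73.4 ± 11.1 CPM over the 24 of prostrata (mean ± SD).

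Of the 22 tested loci of the tricarboxylic acid cycle and pyruvate dehydrogenase, 0 were called by edgeR or DESeq2, with a median of 0.20. Of these 18 had an unadjusted p under 0.05, at sizes under the 2-fold threshold, from -0.23 for the succinate dehydrogenase subunit SDH1-2 (AT2G18450) to 0.79 for AT3G55410. Of 13 general mitochondrial proteins 2 were higher, beside 9.61% of all loci, and the median was 0.62. These 2 were the adenine nucleotide carrier AAC3 (AT4G28390) at 1.05 (SE 0.05) and the alternative oxidase AOX2 (AT5G64210) at 1.62 (SE 0.15). With library totals 1 of the 13 was called and the median was 0.47, and the median of the cycle was 0.06, beside a median of all loci that then stood at -0.17.

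Among 6 other mitochondrial carriers of organic acids and pyruvate 3 were higher (9.61% of all loci). AT4G05590 was at 3.34 (SE 0.13), with 10.1 ± 6.23 CPM over the rosea libraries and 0.983 ± 0.671 CPM over those of prostrata (SD, n = 24 each). AT5G01340, a mitochondrial substrate carrier family protein, was at 1.15 (SE 0.07) and AT4G22310 at 1.03 (SE 0.08), and with library totals 2 of the 6 were called. Among 6 malate dehydrogenases of other compartments 1 was higher, against the same share of all loci: AT5G56720, predicted to be cytosolic, at 1.46 (SE 0.07). The peroxisomal PMDH1 (AT2G22780) was at -0.88 (SE 0.07) and PMDH2 (AT5G09660) at 0.07 (SE 0.06), and with library totals 1 of the 6 was called lower.

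The 3 tested NADP-malic enzymes, the decarboxylases of another C4 type, were between -0.30 and -0.25, and 0 were called by edgeR or DESeq2, though all 3 had an unadjusted p under 0.05. For the C4 cycle outside mitochondria 4 of 4 tested loci were higher, PPDK, AT2G26900, PPC2 and CA1, at 1.68 to 4.91.

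**Figure D5:**
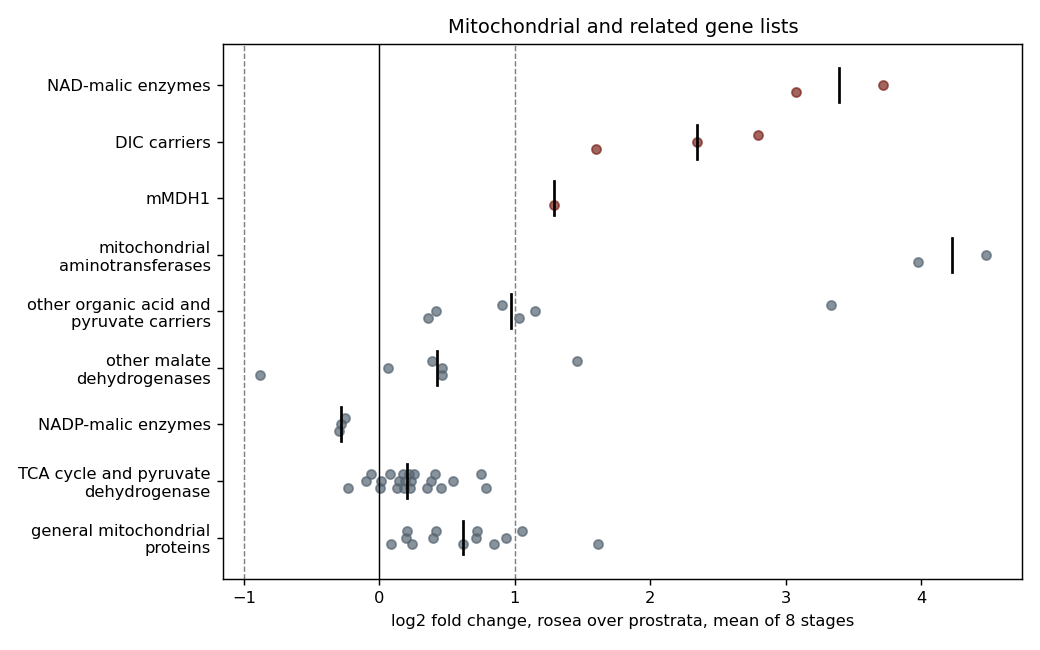
Log2 fold change, rosea over prostrata, mean of 8 stages, of each tested locus in 9 gene lists; red points are the loci described here, grey points other lists, black bars list medians, and dashed lines the 2-fold threshold. The aminotransferases (3.98 and 4.48) stand with the malic enzymes, while the tricarboxylic acid cycle loci lie between -0.23 and 0.79.

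The difference of the age changes, called higher in rosea for 4.51% of all loci, was so for both aminotransferases (ASP1 3.28, SE 0.37; AlaAT1 3.67, SE 0.43), for 2 of 13 general mitochondrial proteins (AOX2 2.82, SE 0.56; the chaperone mtHsc70-1, AT4G37910, 1.13, SE 0.30) and for 2 of 6 other carriers (AT4G14695 1.25, SE 0.30; AT4G22310 1.03, SE 0.28). With library totals 1 of the 13 and 1 of the 6 were called. It was called for 0 of the 22 loci of the tricarboxylic acid cycle by edgeR or DESeq2, with 6 at an unadjusted p under 0.05 and a median of 0.13. AT5G58330, annotated with NADP-dependent malate dehydrogenase activity, went the other way, at -1.62 (SE 0.18, adjusted p = 1.79e-08), where 6.38% of all loci were called lower. It had 203 CPM at 1 mm and 232 CPM at index 0.8 in rosea, against 79.7 and 286 CPM in prostrata.

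Markers of cells that leaves could hold in different shares were set beside these results. Of 6 vein and bundle sheath patterning markers (SUC2, APL, XCP1, XCP2, SCR and SHR) 0 were called over the stages by edgeR or DESeq2. Of all loci 19.9% were called there by edgeR, higher or lower. Of these markers 5 had an unadjusted p under 0.05, and the median was 0.55. Their summed level ran from 233 to 366 CPM in rosea and from 164 to 254 CPM in prostrata, with 0 of the 6 at 0 in either species. Of 2 meristem markers, STM was not called, and KNAT1 was called lower in rosea, where 10.3% of all loci were. STM had 26.3 CPM at 1 mm in rosea and 27.0 CPM in prostrata, and at most 2.20 CPM in the later group means. KNAT1 had 15.0 CPM at 1 mm in rosea and 25.1 CPM in prostrata. At the later stages its group means were 0.0285 to 0.358 CPM in rosea and 3.01 to 5.94 CPM in prostrata. In the difference of the age changes 1 of the 3 leaf markers, RBCS1A, was called lower in rosea (6.38% of all loci), at -2.06 (SE 0.35). It had 2102 CPM at 1 mm and 13962 CPM at index 0.8 in rosea, against 1629 and 47674 CPM in prostrata. RCA, the Rubisco activase, was at -0.96 (SE 0.32, adjusted p = 0.0263) and CAB3, a chlorophyll-binding protein, at 0.50 (SE 0.31, adjusted p = 0.235) in edgeR, neither called. The part of these markers in the results was not tested.

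Across the 16 group means of log2 CPM, the 2 subunits of the malic enzyme had r = 0.996, and over the 8 stage means of each species 0.992 in rosea and 0.556 in prostrata. By this measure NAD-ME1 was most like AlaAT1 (0.997), ASP1 (0.996), AT1G31910, a GHMP kinase family protein (0.996), AT1G10657 and the aspartate aminotransferase ASP4 (0.994 both), leaving out the members. For NAD-ME2 the closest loci were ASP1 (0.996), AT5G52780 (0.995), AlaAT1 (0.995), the uncoupling protein PUMP1 (0.994) and ASP4 (0.993). For DIC1 they were AT3G58150 (0.974), AT1G11670 (0.972), AT1G28510 (0.971), NDT2 (0.968) and AT2G34560 (0.966). AT5G52780 (5.00 CPM in rosea, 0.0055 CPM in prostrata) and AT1G10657 (4.10 CPM in rosea, 0.0169 CPM in prostrata) were near 0 in prostrata and passed the filter through rosea. These are descriptions over 16 points that share species and age.

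Within each species the likeness was taken over the 8 stage means, again as a description. There NAD-ME1 and DIC1 had r = 0.9995 in rosea and -0.14 in prostrata, and NAD-ME2 and DIC1 had 0.992 in rosea and 0.52 in prostrata. DIC1 and DIC2 had 0.9998 in rosea and 0.996 in prostrata, and the check of shared reads above applies to that pair.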

How the data were processed

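Leaf RNA of 24 rosea and 24 prostrata libraries was analysed. The authors deposited whole-number read counts per Arabidopsis locus for each library, per the file headers; the deposited log2 fold changes and q-values of the authors (kept as other values because 5 rows had moved cells, and those 5 loci were left out) were used for 1 comparison. CASAVA, TAIR10 and DESeq2 are named, without versions, per the submitters' processing notes; aligner, counting program and strand setting: not given in the sources used here. Of 60 count columns 48 matched labelled samples, and 12 count columns and 92 per-sample columns in all were not used. Leaf 9 columns, numbered 1 to 3 where labels say 3 to 5, were matched as a group.

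The counts of all 48 libraries entered 1 quasi-likelihood fit (edgeR 4.0.16 under R 4.3.3), each group having its own mean, with TMM scaling (factors 0.653 to 1.313) and filterByExpr. The biological coefficient of variation was 15.7%, with 32 residual degrees of freedom. The SE was taken from the F statistic, as the size of the log2 fold change over the root of F. The design calls the libraries biological triplicates, and the labels tie no library to a plant or pool. In the main fit the p-values rest on 1 spread per locus, taken from all 16 groups of both species together. They do not use the spread of the compared groups alone, and 3 libraries per group limit its precision. Alternatives were other scalings and filters, DESeq2 1.42.0, summed counts, fewer libraries, a replicate block and, chosen after seeing the data, a block of bottom and top parts. A planned ratio of mMDH2 to mMDH1 could not be computed. The fit was tested on simulated data. Members and lists were chosen with earlier results of these data known. Other loci were named when among the 4 largest called of a list, or the 5 most like NAD-ME1, NAD-ME2 or DIC1 over group means; SDH1-2, AT3G55410, PMDH1, PMDH2 and AT5G58330 were also named, some after their values were seen, and the marker lists in full.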

Additional observations from a re-analysis of the deposited data

Results flagged for a closer look

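The change with age, index 0.8 minus 1 mm, differed between rosea and prostrata for all 6 loci by the test of the difference itself in edgeR (Benjamini-Hochberg adjusted p over all loci). The difference, rosea minus prostrata on the log2 scale, was 2.92 for NAD-ME1 (adjusted p = 2.92e-08), 3.22 for NAD-ME2 (1.99e-10), 4.45 for DIC1 (1.98e-09), 4.54 for DIC2 (1.71e-09), 4.26 for DIC3 (6.38e-09) and 1.39 for mMDH1 (2.71e-05). The 3 carriers are not taken as 3 independent measurements. All 6 were still called without each of 18 libraries in turn, with values from 2.74 to 3.06 for NAD-ME1 and from 1.26 to 1.50 for mMDH1. Groups held 3 libraries each, so single libraries far from their group were not tested.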

How the results depend on the processing

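The number of members called kept within 1.5 times its value under relative log expression and upper quartile factors, no filter or a stricter one, DESeq2, libraries of the comparison only, organelle loci left out and leaf 9 left out. The exceptions were library totals and summed loci. With library totals the count was 2 in the age change of prostrata and 0 in the step from 1 mm to 5 mm in rosea. With related loci summed, the result of a sum was counted once for every locus in it, which gave 2 at 1 mm and 5 in that step. At 1 mm the call was that of the NAD-malic enzyme sum (1.42). In that step the calls were those of this sum (1.04) and of the carrier sum (1.18), so no further separate loci were called. The carrier sum stood at -0.27 at 1 mm and 0.53 in leaf 10, where DIC1 and DIC3, respectively, had the other sign. Library totals turned DIC3 at 5 mm to -0.053 and mMDH1 in the age change of prostrata to -0.35. They moved the share of calls that were higher in rosea over the stages from 48.4% to 37.2%, and that of rising loci among age calls to 17% from 59.3% in rosea and to 23% from 64.7% in prostrata.

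Without 1 library the count ran from 1 to 2 at 1 mm, from 3 to 4 at 5 mm, from 3 to 5 in leaf 9, from 2 to 4 in leaf 10 and from 1 to 4 in the rosea step from 1 mm to 5 mm. Values that changed sign ran from -0.094 to 0.25 for DIC1 at 1 mm, from -0.018 to 0.26 for DIC3 at 5 mm, from -0.24 to 0.43 for DIC3 in leaf 9, from -0.30 to 0.73 for DIC2 in leaf 10, from -0.072 to 0.035 for NAD-ME1 in the age change of prostrata and from -0.13 to 0.076 for mMDH1 in prostrata tips minus bases. The cause of these changes was not tested, and none of these 6 values was called.

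The labels do not say whether bottom and top parts of the same number came from the same leaves. Over all groups, deviations of libraries with the same number correlated between -0.573 and 0.476 (median 0.0067, 273 pairs), and 17 of 42 libraries correlated best with their own number. With the number as a replicate block and leaf 9 left out, 6 members were called over the stages, 1 at 1 mm, 4 at 5 mm and 2 in leaf 10, as without the block. For bottom and top parts of the same species and index, same-numbered libraries correlated between -0.442 and 0.405 (median 0.0513, 5 of 12 pairs over 0.1), and different-numbered ones between -0.338 and 0.373 (median -0.0893, 24 pairs). With these pairs as a replicate block in the leaf part libraries, an alternative chosen after seeing the data, 0 members were called in tips minus bases of either species or in the difference, and NAD-ME1 in rosea was at 0.46 (adjusted p = 0.379 in edgeR). Of all values recomputed, 1446 kept direction and call under the other alternatives and 1483 without 1 library. Under the other alternatives 4 counts of members moved, 4 values reversed sign, 11 gained a call and 7 lost it. Without 1 library the same changes numbered 6, 13, 10 and 9. Depth limits DIC3 most, with 119 counts in the 3 prostrata libraries of the top part at index 0.3.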
